A study of Mus musculus with 10 samples.

Results

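The metallothioneins and their partners in zinc handling were taken as 7 listed genes, *Mt1*, *Mt2*, *Mt3*, *Mtf1*, *Slc30a1*, *Slc39a10* and *Slc39a14*, of the 47729 genes in the count table, and each was matched by its Ensembl identifier. The rule is a list of names and sets no threshold on a measured value. RNA was measured by sequencing in retinal pigment epithelium (RPE), the pigmented layer under the retina, of 5 wild-type mice of the CD1 stock, aged 40 days after birth. In each mouse AAV-Best1-GFP was injected into both eyes and AAV-Best1-Nrf2 was added in 1 of them, the Nrf2 eye, while the fellow eye served as the GFP control, so there were 10 libraries in 5 pairs. AAV is an adeno-associated virus that carries a gene into cells, Best1 is a human promoter that drives expression in RPE cells, and Nrf2 is the transcription factor that switches on antioxidant genes. The Nrf2 vector carried the human coding sequence. All eyes received the GFP vector, the Nrf2 eyes received a further vector, and no eye received a matched dose of some other vector in its place. RNA was collected from the cleaned eyecup after the retina was taken out, so that cells other than RPE could still be present. The design asks which RPE transcripts differ when Nrf2 is overexpressed, and here the question is asked of the zinc genes.

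Metallothioneins are very small, cysteine-rich proteins that bind zinc and copper and scavenge reactive oxygen species. When free zinc rises, the sensor Mtf1 binds metal response elements in the promoters of *Mt1*, *Mt2* and the zinc exporter *Slc30a1* and turns them on, while importers of the Slc39 family bring zinc into the cytosol. Metallothioneins have long been studied in the RPE, a tissue rich in zinc, as part of its protection against oxidative damage, and glucocorticoids and STAT3 are known to add to the transcription of *Mt1* and *Mt2*.

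The libraries held 12298404 to 27310638 counts, and levels are given as CPM, the counts of a gene scaled to a common library total. Targeting was checked on *Nfe2l2*, the mouse gene for Nrf2, which ran from 79.3 to 109.6 CPM in the control eyes and from 267 to 414 CPM in the Nrf2 eyes. Reads from the human sequence may be included in this value where they match the mouse gene. RPE markers were abundant, with 19230 to 42230 CPM summed over 10 genes in control eyes and 9620 to 26940 CPM in Nrf2 eyes, and 5 of the 10 fell, among them the visual cycle enzyme *Rpe65* (3492 to 546.5 mean CPM). The other 5 were not called, among them the most abundant, the thyroxine carrier gene *Ttr* (11540 and 11750 mean CPM, higher in the Nrf2 eye of 3 of 5 mice). Of 10 macrophage and microglia markers 9 rose (the exception was *Csf1r*), with summed levels of 159.5 to 280.3 CPM in control eyes and 331 to 1682 CPM in Nrf2 eyes, and none of these markers was at 0 in any library. Rod RNA varied from library to library, and its summed markers were highest in both eyes of mouse 2 (18890 CPM in the control eye and 7182 CPM in the Nrf2 eye). Summed rod markers were lower in the Nrf2 eye of 4 of 5 mice, from 2754 to 57.16 CPM in mouse 4, and summed cone markers in 5 of 5, and all 7 tested rod and 6 cone markers had a negative log2 fold change. EdgeR called 0 of either list, with 0 rod and 3 cone markers at an unadjusted p under 0.05, DESeq2 called 0 and 1, and limma-voom called 0 and 2. Of all 16362 genes tested by edgeR, 3128 were at an unadjusted p under 0.05.

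The promoter windows of the genes with which the results deal are printed first, because *Mt1* and *Mt2* moved together and *Mt3*, from the same cluster of genes, moved the other way. The cluster lies on mouse chromosome 8 of GRCm38, all on the plus strand, with *Mt3* at 94152607 to 94154146, *Mt2* at 94172664 to 94173568 and *Mt1* at 94179082 to 94180327. Each window runs from 250 bases before to 50 bases after a RefSeq transcript start on GRCm38.p6, and position 0 is the first base of the transcript. Capitals mark the core of the metal response element, searched as TGCACNC or TGCGCNC on both strands, and the core of the antioxidant response element to which Nrf2 binds, searched as TGACNNNGC on both strands. No marked site overlapped another.
*Mt1* (chr8:94178839-94179138, plus strand): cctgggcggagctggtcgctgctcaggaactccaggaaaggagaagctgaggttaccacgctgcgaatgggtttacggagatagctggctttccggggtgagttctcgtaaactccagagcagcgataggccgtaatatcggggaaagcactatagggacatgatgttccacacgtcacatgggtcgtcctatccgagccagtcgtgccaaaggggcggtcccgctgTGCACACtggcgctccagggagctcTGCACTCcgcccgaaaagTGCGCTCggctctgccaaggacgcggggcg
*Mt2* (chr8:94172368-94172667, plus strand): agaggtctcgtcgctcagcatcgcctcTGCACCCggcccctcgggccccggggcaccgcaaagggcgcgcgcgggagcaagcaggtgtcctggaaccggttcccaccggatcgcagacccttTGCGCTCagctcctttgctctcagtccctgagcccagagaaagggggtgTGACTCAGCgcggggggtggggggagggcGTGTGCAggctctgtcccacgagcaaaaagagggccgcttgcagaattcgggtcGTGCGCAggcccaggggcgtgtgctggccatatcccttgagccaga
*Mt3* (chr8:94152357-94152656, plus strand): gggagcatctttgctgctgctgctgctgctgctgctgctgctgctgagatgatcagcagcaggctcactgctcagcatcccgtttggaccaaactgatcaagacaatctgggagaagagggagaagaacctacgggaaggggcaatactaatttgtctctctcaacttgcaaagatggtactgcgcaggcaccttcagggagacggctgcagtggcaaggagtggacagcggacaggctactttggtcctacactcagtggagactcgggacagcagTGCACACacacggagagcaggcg
*Slc30a1* (chr1:191906531-191906830, plus strand): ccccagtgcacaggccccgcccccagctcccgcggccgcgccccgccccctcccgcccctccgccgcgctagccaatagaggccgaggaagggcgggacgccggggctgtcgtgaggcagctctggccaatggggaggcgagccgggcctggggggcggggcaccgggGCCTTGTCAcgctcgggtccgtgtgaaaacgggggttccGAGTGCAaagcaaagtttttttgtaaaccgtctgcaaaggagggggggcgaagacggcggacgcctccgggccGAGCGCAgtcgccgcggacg

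The *Mt1* window held 3 metal response cores, at -23 to -17, 2 to 8 and 20 to 26. The *Mt2* window held 4 such cores, at -223 to -217, -128 to -122, -50 to -44 and 4 to 10, the last pair on the minus strand. The *Mt3* window held 1, at 27 to 33, downstream of the transcript start. In *Slc30a1* there were 2, both on the minus strand, at -43 to -37 and 30 to 36. Of 32851 mouse promoter windows of this length, 25.7% held at least 1 metal response core, 7.11% at least 2, 1.97% at least 3 and 0.517% at least 4. An antioxidant response core was found in *Mt2* (TGACTCAGC, -79 to -71) and in *Slc30a1* (-82 to -74, minus strand), against 12.4% of all windows. None was found in the windows printed for *Mt1* and *Mt3*. Bases outside the windows, such as those around another transcript start, were not searched, so a core there would have been missed. The windows of *Mtf1* and *Slc39a10*, the latter with 2 transcript starts, held neither core. The gene starts of both in GENCODE M21 lay outside these windows and were not searched. The E-box CACGTG, which is bound by USF factors and was searched as a further element, was in none of the windows of these 6 genes and in 7.15% of all windows. A match of letters is a description of the window and was not a measure of binding.

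Of the 7 genes, *Mt3* was higher in Nrf2 eyes, *Mt1* and *Mt2* were lower, and 4 did not pass the test. Over all 16362 genes tested, 3.6% were called higher, 2.73% lower and 6.33% in either direction, at an adjusted p under 0.05 (edgeR's quasi-likelihood test, blocked by mouse, with p adjusted by Benjamini-Hochberg). Fold changes below are from that fit, and SE is taken over the 5 within-mouse log2 differences. All 7 genes passed the filter on low counts. The median log2 fold change of the 7 genes was 0.08, beside -0.01 over all genes tested.

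**Figure D1:**
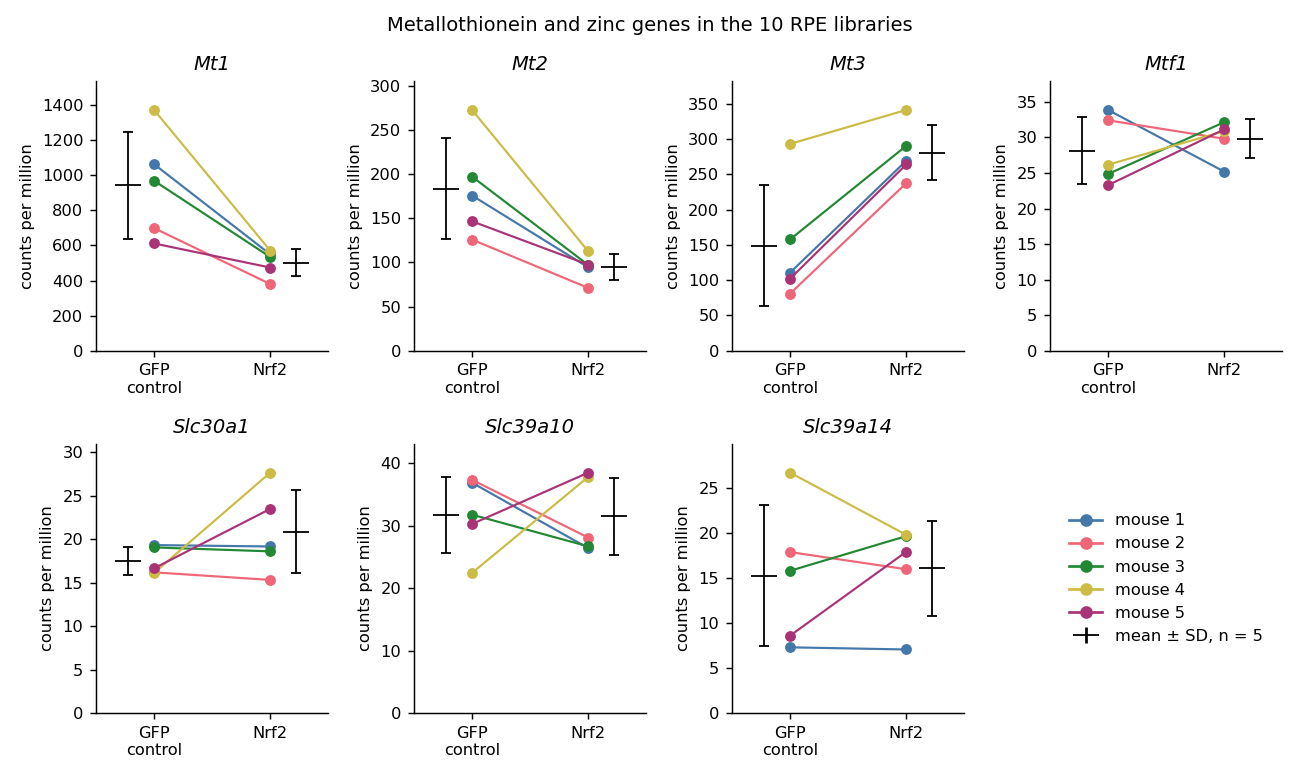
Level of each of the 7 genes in CPM (linear axis from 0) in the GFP control eye and the Nrf2 eye, with a line joining the eyes of 1 mouse and bars for the mean ± SD of 5 eyes. *Mt1* and *Mt2* fell in 5 of 5 mice without overlap between the groups, *Mt3* was higher in 5 of 5 mice, and the lines of the other 4 genes cross.

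*Mt1*, an isoform expressed in most tissues, was the most abundant of the 7 genes. Control eyes of mice 1 to 5 stood at 1063, 699, 969, 1372 and 611 CPM. Their Nrf2 eyes stood at 549, 379.7, 534, 570.2 and 474 CPM. Every Nrf2 eye lay under every control eye, and mouse 4, the highest control, had the largest drop. The Nrf2 over control ratio of CPM was 0.5165, 0.5435, 0.551, 0.4155 and 0.775 in the 5 mice. The mean was 943 ± 304 CPM in control and 501 ± 76.8 CPM in Nrf2 eyes (SD, n = 5), and the log2 fold change was -0.88 (SE 0.14, adjusted p = 0.0128 by edgeR), or 1.84-fold lower. The call was lost without mouse 2 (log2 fold change -0.84, adjusted p = 0.0659) and without mouse 3 (-0.83, adjusted p = 0.0594), and with rod markers as a covariate (-0.73, adjusted p = 0.0663). In bulk RNA of this kind, fewer cells that carry a transcript and less transcript per cell cannot be told apart.

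*Mt2*, which is regulated with *Mt1* in most tissues, changed by a like amount. Its control eyes held 176, 126, 197, 273 and 146.5 CPM in mice 1 to 5. The Nrf2 eyes of the same mice held 94.3, 71.05, 96.99, 112.5 and 97.4 CPM. The groups did not overlap here either, and mouse 4 was again the highest in both groups. The share of all genes tested whose groups separate in this way was not counted, so the separation of *Mt1* and *Mt2* is a description only. Ratios of Nrf2 to control CPM were 0.5365, 0.565, 0.492, 0.413 and 0.665. Means were 183.5 ± 56.8 CPM in control and 94.4 ± 14.9 CPM in Nrf2 eyes (SD, n = 5), and the fitted log2 change was -0.94 (SE 0.11, adjusted p = 0.00447 by edgeR), or 1.92-fold lower. Leaving out each mouse in turn left *Mt2* called lower, with adjusted p of 0.011 to 0.0279. The annotated antisense gene *Gm45774* shares 432 exon bases with *Mt2* and was not among the genes in the count table. The strand setting of the counting was not given either, so reads of *Gm45774* could not be told apart from those of *Mt2*.

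Since *Mt1* and *Mt2* differed in level by several fold and in change by little, their ratio was compared within each library, where library size cancels. *Mt1* had 5.145 ± 0.707 times the counts of *Mt2* in control eyes (4.17 to 6.05) and 5.32 ± 0.374 times in Nrf2 eyes (4.87 to 5.82; SD, n = 5). The log2 ratio of *Mt2* to *Mt1* shifted by -0.06 on average (SD 0.128, range -0.22 to 0.06) and was higher in the Nrf2 eye of 2 of 5 mice. A two-sided exact permutation test over the 5 pairs gave p = 0.4375. This test on 5 pairs cannot reach 0.05 however large the shift, so it cannot decide whether the ratio shifted. Over the 10 libraries *Mt1* and *Mt2* had a Pearson's r of 0.97 in log2 CPM, given as a description across libraries in which both genes fell.

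*Mt3*, known mainly from brain, where it was first described as a growth inhibitory factor of neurons, moved in the opposite direction. The control eyes of mice 1 to 5 held 111, 80.8, 158, 293 and 102 CPM. The Nrf2 eyes held 269, 238, 290.5, 341 and 264 CPM. All 5 mice were higher in the Nrf2 eye, and the groups overlapped only through the control eye of mouse 4, which at 293 CPM exceeded 4 of the 5 Nrf2 eyes. Nrf2 over control ratios were 2.435, 2.94, 1.84, 1.165 and 2.59. Mean levels were 149 ± 85.4 CPM in control and 281 ± 38.8 CPM in Nrf2 eyes (SD, n = 5), and the log2 fold change was 1.05 (SE 0.25, adjusted p = 0.02545 by edgeR). The call needed the pairing of eyes: without the mouse block the log2 fold change was 0.895 with an adjusted p of 0.172. It was also lost without mouse 1 (adjusted p = 0.0647), 2 (0.0862), 3 (0.0619) or 5 (0.0841), and without mouse 4 it stood at 1.30 with an adjusted p of 0.0109.

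The control eye of mouse 4 was highest for *Mt1*, *Mt2* and *Mt3* alike, so *Mt3* was also set against *Mt2* within each library. The ratio of *Mt3* to *Mt2* counts in mice 1 to 5 was 0.630, 0.643, 0.8002, 1.075 and 0.697 for control eyes. In the Nrf2 eyes it was 2.86, 3.345, 3.00, 3.03 and 2.71. The groups lay far apart, and mouse 4 no longer stood with the Nrf2 eyes. The rise within a mouse ran from 2.82-fold in mouse 4 to 5.20-fold in mouse 2, and the mean log2 difference was 1.99 (SD 0.332, n = 5). No test was made of this ratio, since it was chosen after the values of both genes were seen. Against *Mt1* the *Mt3* ratio rose from 0.153 ± 0.0440 to 0.563 ± 0.0520 (SD, n = 5), by 2.80-fold to 5.41-fold within a mouse.

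**Figure D2:**
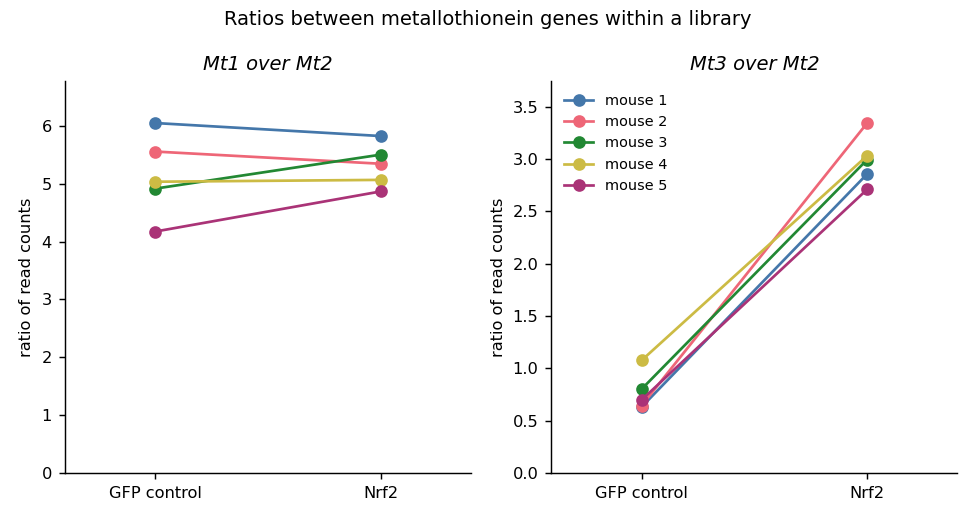
Ratio of read counts of *Mt1* to *Mt2* (left) and of *Mt3* to *Mt2* (right) in each library, both axes linear from 0, with a line joining the eyes of 1 mouse. The left ratio stayed between 4.17 and 6.05 in all libraries, and the right one lay between 0.630 and 1.075 in control eyes and between 2.71 and 3.345 in Nrf2 eyes.

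Levels of different genes were compared per kilobase of exon. In control eyes the order was *Mt1* (757 CPM per kb), *Mt2* (312), *Mt3* (139.7), *Slc39a10* (5.21), *Slc30a1* (3.33), *Mtf1* (3.16) and *Slc39a14* (1.45). *Mt1* ranked 50 of 16311 genes, *Mt2* 117 and *Mt3* 336, while the other 4 ranked between 7288 and 11490. In Nrf2 eyes *Mt1* (402 CPM per kb, rank 90) was followed by *Mt3* (263, rank 154) and then *Mt2* (161, rank 298), and the order of the other 4 did not change. Ranges over the 5 eyes overlapped for *Mt2* and *Mt3* in control eyes (214 to 464 and 75.8 to 275), and for *Mt1* and *Mt3* in Nrf2 eyes (305 to 458 and 223 to 320.2). Those of *Slc39a10*, *Slc30a1* and *Mtf1* overlapped between neighbours in both groups, and *Slc39a14* lay under *Mtf1* without overlap in both. The share of *Mt3* in the summed metallothionein level per kb was 11.1% ± 2.65 in control and 31.9% ± 1.82 in Nrf2 eyes, with 8.265% to 14.9% and 29.6% to 34.4% as ranges. The summed level itself was 1209 ± 410 CPM per kb in control and 826 ± 118 in Nrf2 eyes, and these groups overlapped (835 to 1840 and 648.5 to 969). Within a mouse it was lower in the Nrf2 eye in 5 of 5, from 1840 to 969 in mouse 4 and from 835 to 794 in mouse 5.

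The exon union of *Mt1* (1246 bases) and *Mt3* (1066 bases) is longer than their principal transcripts (549 and 536 bases), which moves the levels per kb. With principal transcript lengths *Mt1*, *Mt2* and *Mt3* stood at 1717, 359 and 278 CPM per kb in control eyes and at 913, 185 and 523 in Nrf2 eyes. On these means *Mt3* was still below *Mt2* in the first and above it in the second. In the control eye of mouse 4, however, *Mt3* (547) passed *Mt2* (533.5). The other 4 genes then stood at 3.11 to 5.77 CPM per kb in control eyes, *Mtf1* (3.69) passed *Slc30a1* (3.33), and the ranges of *Slc39a14* (1.49 to 5.43) and *Mtf1* (3.05 to 4.44) overlapped. *Mt4*, the squamous epithelium isoform, had 1 count in the control eye of mouse 5 and 0 counts in the other libraries, where 3 counts correspond to 0.11 to 0.244 CPM over all 10, so it was not tested. None of the 31-base stretches of the 3 expressed metallothionein transcripts was shared among them, and 3 of 573 in *Mt2* occurred in transcripts of another gene. Transcripts were compared in their own direction only, so the overlap of *Mt2* with the antisense gene *Gm45774* does not enter this count.

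*Mtf1*, the metal-sensing transcription factor, was at 33.9, 32.4, 24.9, 26.2 and 23.3 CPM in the control eyes of mice 1 to 5. Its Nrf2 eyes were at 25.2, 29.8, 32.15, 30.9 and 31.1 CPM. The groups overlapped, with a fall in mice 1 and 2 and a rise in mice 3 to 5. The log2 fold change was 0.08 (SE 0.14, adjusted p = 0.844 by edgeR). It shares 721 exon bases with the opposite-strand gene *1110065P20Rik*, for which the log2 fold change was -0.29 (adjusted p = 0.403).

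*Slc30a1*, the ZnT1 exporter that carries zinc out across the plasma membrane, held 19.3, 16.2, 19.1, 16.1 and 16.7 CPM in control eyes. In the Nrf2 eyes it held 19.2, 15.3, 18.6, 27.65 and 23.5 CPM. Mice 4 and 5 were higher in the Nrf2 eye, by ratios of 1.71 and 1.41, and the other 3 mice lay between 0.946 and 0.992. The log2 fold change was 0.21 (SE 0.15, adjusted p = 0.551 by edgeR).

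*Slc39a10*, a zinc importer of the plasma membrane, stood at 36.9, 37.3, 31.8, 22.5 and 30.3 CPM in control eyes. Its Nrf2 eyes stood at 26.4, 28.1, 26.7, 37.8 and 38.5 CPM. As for *Slc30a1*, mice 4 and 5 were higher (ratios 1.68 and 1.27), but mice 1 to 3 were lower (0.716 to 0.840), and the mean log2 fold change was -0.03 (SE 0.21, adjusted p = 0.966 by edgeR).

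*Slc39a14*, an importer of zinc that also takes up iron and manganese, was the lowest of the 7 genes in mean level and varied several-fold among control eyes, with 7.345, 17.9, 15.85, 26.8 and 8.64 CPM in mice 1 to 5. The Nrf2 eyes gave 7.10, 16.02, 19.7, 19.8 and 17.97 CPM. Both eyes of mouse 1 were low, and mouse 5 alone had a ratio above 2, at 2.08. The log2 fold change was 0.13 (SE 0.25, adjusted p = 0.845 by edgeR).

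The remaining zinc transporters were counted by family. ZnT (Slc30) proteins carry zinc out of the cytosol and ZIP (Slc39) proteins carry it in. Outside the 7 genes, 16 of 21 such genes could be tested, 0 rose and 3 fell, beside the 3.6% and 2.73% of all genes, and their median log2 fold change was 0.06. At an unadjusted p under 0.05 there were 5 of the 16, beside 3128 of all 16362 genes tested. Without the mouse block, and with rod markers as a covariate, edgeR called 0 of the 16, while DESeq2 and limma-voom called the same 3. Each of the 3 calls was lost without at least 1 of mice 2, 4 and 5. Without mouse 5 edgeR called 1 of the 16 higher and 0 lower.

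*Slc30a5*, the ZnT5 transporter that loads zinc into enzymes of the secretory pathway, was the most abundant ZnT in CPM. It stood at 130.4, 123, 136, 152 and 108 CPM in control eyes and at 91.6, 82.2, 108.3, 103.6 and 76.9 CPM in Nrf2 eyes. It was lower in all 5 mice, with ratios of 0.670 to 0.795, and the groups met only where the highest Nrf2 eye passed the lowest control eye. The log2 fold change was -0.51 (SE 0.06, adjusted p = 0.0163 by edgeR), and the call was lost without mouse 2 (adjusted p = 0.093), 4 (0.0609) or 5 (0.0586).

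Among the ZIP genes, the importer *Slc39a3* stood at 57.1 ± 12.4 CPM in control and 43.4 ± 8.62 CPM in Nrf2 eyes, for a fitted log2 change of -0.41 (SE 0.07, adjusted p = 0.0458 by edgeR), and was lower in 5 of 5 mice. *Slc39a12*, an importer known from brain, stood at 160.2 ± 30.7 and 108 ± 35.5 CPM, for a fitted log2 change of -0.62 (SE 0.16, adjusted p = 0.0493 by edgeR), also lower in 5 of 5 mice. Both calls lie close to the threshold: *Slc39a3* lost its call without any of the 5 mice, and *Slc39a12* kept it only without mouse 3. The call of *Slc39a12* was also lost with library totals alone (adjusted p = 0.0603) and with a mean of at least 50 counts (0.0532), and that of *Slc39a3* without the filter on low counts (0.0982). By mean CPM over all 10 libraries the most abundant ZIP gene was *Slc39a7*. The mean of *Slc39a12* exceeded it in control eyes, where *Slc39a12* was the higher in mice 1 and 3 only. In Nrf2 eyes the mean of *Slc39a4*, a zinc importer known from the gut, exceeded it, through mice 1 to 3 (175 mean CPM, from 124 in control eyes, log2 fold change 0.40, adjusted p = 0.412 by edgeR). Per kb of exon *Slc39a7* (60.3 in control and 65.3 in Nrf2 eyes) stood above *Slc39a12* (53.4 and 35.9) and *Slc39a4* (39.8 and 56.25) on the means of both groups. *Slc39a7* releases zinc from the endoplasmic reticulum and stood at 156 ± 25.7 and 169 ± 11.9 CPM (log2 fold change 0.11, adjusted p = 0.641).

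**Figure D3:**
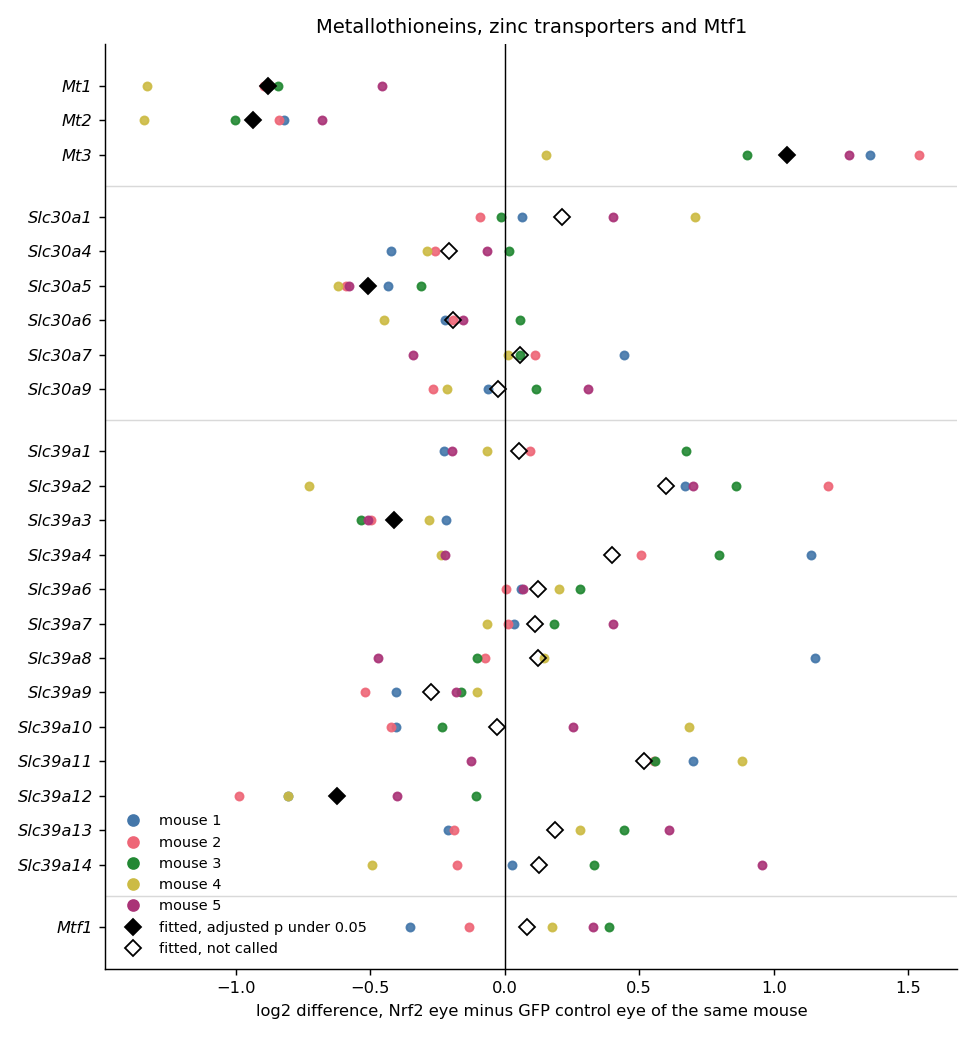
Log2 difference between the Nrf2 eye and the control eye of each mouse (coloured points) and the fitted log2 fold change (diamonds, filled where the adjusted p was under 0.05) for the metallothioneins, the tested zinc transporters and *Mtf1*. *Mt1* and *Mt2* lie to the left of 0 in 5 of 5 mice, *Mt3* lies to the right in 5 of 5 with mouse 4 nearest to 0, and most transporters straddle 0.

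Genes for other metals and other zinc proteins were counted in the same way. Of 3 zinc proteins outside these families, the zinc-sensing receptor *Gpr39* (2.15 and 2.84 mean CPM) and *Cbwd1* (6.84 and 7.76 mean CPM), a zinc chaperone, could be tested by edgeR, and 0 were called, also at an unadjusted p under 0.05 and by DESeq2 or limma-voom. None of 10 copper handling genes was called by edgeR, and the most abundant of them in CPM, the copper importer *Slc31a1*, stood at 228 ± 17.4 CPM in control and 207 ± 26.97 CPM in Nrf2 eyes. The log2 fold changes of the 10 ran from -0.29 to 0.04, and at an unadjusted p under 0.05 edgeR gave 0, as DESeq2 and limma-voom did after adjustment. Of 7 iron and manganese transport genes 2 rose. *Slc11a1*, a metal transporter of the phagosomes of macrophages, went from 7.61 ± 3.98 to 121 ± 22.6 CPM (log2 fold change 4.10, SE 0.33, adjusted p = 0.000621), and *Slc40a1*, the iron exporter ferroportin, went from 1.90 ± 1.00 to 57.6 ± 18.1 CPM (4.97, SE 0.44, adjusted p = 0.000753). The macrophage and microglia markers rose with both, as given above, and their part in these results was not tested. *Atp2c1*, the most abundant gene of the iron and manganese list in CPM though not per kb of exon, was at 166 ± 33.9 and 161 ± 7.56 CPM.

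Regulators that act on metallothionein genes from outside the zinc pathway were also counted. Of 9 glucocorticoid response genes none was called by edgeR, with log2 fold changes from -0.56 to 0.50. At an unadjusted p under 0.05 there were 3, beside 3128 of all 16362 genes tested, and DESeq2 and limma-voom called 1 each. The most abundant, the kinase gene *Sgk1*, was lower in 5 of 5 mice at 1984 ± 364 and 1384 ± 402 CPM without passing the test (log2 fold change -0.56, SE 0.11, adjusted p = 0.0652). Of 10 genes of STAT3 signalling and the acute phase 4 rose, namely the feedback inhibitor *Socs3* (log2 fold change 1.78, adjusted p = 0.0074), the transcription factors *Cebpd* (1.15, adjusted p = 0.00878) and *Cebpb* (0.89, adjusted p = 0.00226) and the protease inhibitor *Serpina3n* (1.25, adjusted p = 0.00893), while *Stat3* itself had a log2 fold change of 0.33 (adjusted p = 0.302). With rod markers as a covariate edgeR called 1 of the 10. Of all genes tested 3.6% were called higher, and 9 of 10 macrophage and microglia markers (median log2 fold change 4.77) rose in the same eyes, whose part in these 4 calls was not tested. All 7 reference targets of Nrf2 rose, by log2 fold changes of 1.77 to 6.12, led by the heme oxygenase gene *Hmox1* (6.12), the sulfiredoxin gene *Srxn1* (4.96), *Gclc* (4.46), for glutathione synthesis, and the thioredoxin reductase gene *Txnrd1* (4.10). In the same libraries *Mt1* and *Mt2*, each a known oxidant-inducible gene, fell.

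**Figure D4:**
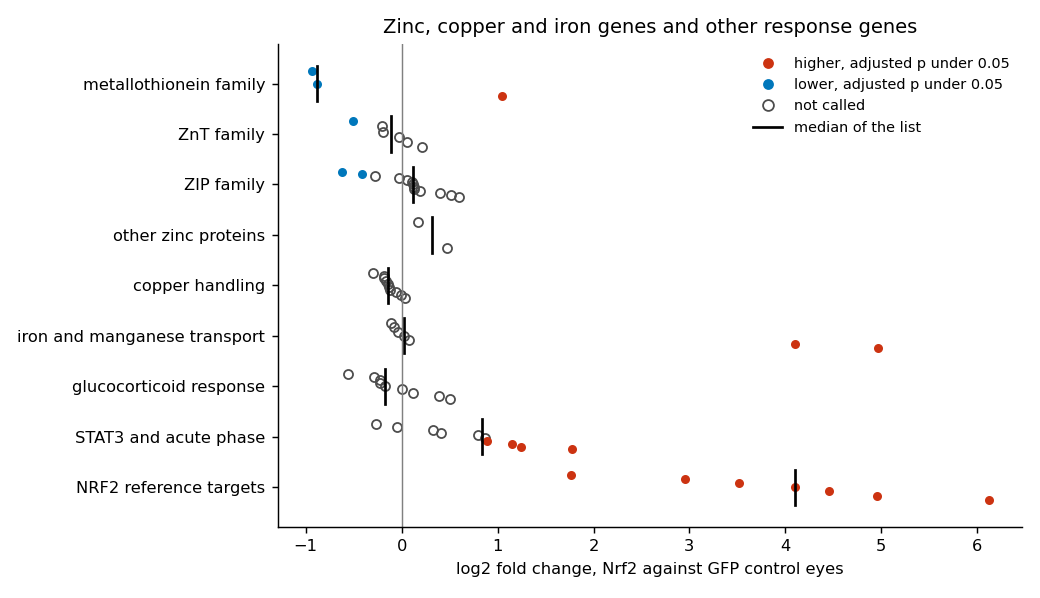
Fitted log2 fold change (Nrf2 against GFP control eyes) of each tested gene by list, with red and blue points for genes called higher and lower, open circles for genes not called and a black bar for the median of the list. Zinc and copper genes lie within about 1 of 0, the metallothioneins split to either side, and all 7 Nrf2 reference targets lie to the right at 1.77 to 6.12.

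The composition of the libraries was set beside the metallothioneins. In control eyes the summed RPE markers were highest in mouse 4 (42230 CPM) and lowest in mouse 5 (19230 CPM), the mice with the highest and the lowest *Mt1*. In Nrf2 eyes the orders differed, with the highest RPE sum in mouse 3 (26940 CPM) and the highest *Mt1* in mouse 4, whose RPE sum was 13230 CPM. The sum was lower in the Nrf2 eye of all 5 mice, as *Mt1* and *Mt2* were, and 8 of the 10 markers had a negative log2 fold change (median -0.56, from -2.88 for *Rpe65*), the others being *Ttr* at 0.00 and *Best1*, at a mean of 0.766 CPM in control eyes, at 0.70. Neither of these was called. The part of the RPE markers, and of the rod and cone RNA given above, in the falls of *Mt1* and *Mt2* was not tested. The Schwann cell and melanocyte factor gene *Sox10* also fell, in 5 of 5 mice (log2 fold change -1.74, adjusted p = 0.0029 by edgeR), the 1 called gene of 4 in its marker list. Summed skeletal muscle markers ran from 51.1 to 111.3 CPM in control eyes and from 7.15 to 567 CPM in Nrf2 eyes, with 0 of 6 called by edgeR, DESeq2 or limma-voom and 0 at an unadjusted p under 0.05. For *Mt3*, known in glia as well as neurons, edgeR called 0 of 6 markers of Müller glia and astrocytes and 0 of 6 tested markers of inner retina neurons, with 0 at an unadjusted p under 0.05 and 0 by DESeq2 or limma-voom in both lists. Summed Müller glia and astrocyte markers were 1163 to 1792 CPM in control and 1294 to 2400 CPM in Nrf2 eyes, and none of the 6 was at 0. All 6 had a positive log2 fold change (median 0.43). The sum went from 1792 to 1294 CPM in mouse 1 and from 1420 to 1414 CPM in mouse 2, and it was higher in the Nrf2 eye of mouse 3 (1500 to 2031 CPM), mouse 4 (1477 to 2400 CPM) and mouse 5 (1163 to 2115 CPM). Its part in the *Mt3* result was not tested. With rod markers as a covariate *Mt2* and *Mt3* were still called. The mean log2 level of the macrophage and microglia markers ran from 1.3 to 2.4 in control and from 4.68 to 6.97 in Nrf2 eyes, which left that covariate nearly the same variable as the group (variance inflation 19.5), and with it edgeR called 0 of 16362 genes, with 1069 at an unadjusted p under 0.05.

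Genes whose log2 CPM over the 10 libraries was most like that of *Mt1* and *Mt2* were ranked by Pearson's r with their mean. The 5 highest were *Ptges*, *Rab20* and *Vamp5* (r = 0.98 each) and *Ptges2* and *Tmod1* (0.97 each). *Ptges* and *Ptges2* encode prostaglandin E synthases, *Rab20* a small GTPase of membrane traffic, *Vamp5* a membrane fusion protein and *Tmod1* a cap of actin filaments. All 5 were lower in Nrf2 eyes, by log2 fold changes of -0.62 to -0.995. The 3 lowest were the transcription factor gene *Sox8* (r = -0.96), the kinase gene *Limk1* (-0.94) and the ion channel family gene *Ano3* (-0.94). Of the other members the values were 0.09 for *Slc39a14*, -0.13 for *Slc30a1*, -0.18 for *Slc39a10*, -0.23 for *Mtf1* and -0.24 for *Mt3*. The 10 libraries share 5 mice and 2 groups, so these values describe the libraries and carry no test. Over the 5 within-mouse differences alone, *Slc39a14* had an r of 0.86 with *Mt1* and *Mt2*, *Mt3* 0.83, *Mtf1* 0.02, *Slc30a1* -0.45 and *Slc39a10* -0.46. Mouse 4 had the smallest rise of *Mt3* and the deepest falls of the other two.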

How the data were processed

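The file deposited by the authors holds counts as whole numbers, 1 row per Ensembl gene for 10 libraries and unnormalized. They aligned reads with STAR to mm10, counted with featureCounts, and in parallel ran Salmon (0.8.2 per the submitters' processing notes). Which of these tables was deposited, the strand setting and filters were not given in the sources used here, and the table held 0 columns of other samples. Symbols and lengths came from GENCODE M21 (47310 of 47729 identifiers matched, 99.1%).

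From the counts, 16362 genes passed filterByExpr and were fitted by edgeR 4.0.16 (TMM, quasi-likelihood, mouse as block, R 4.3.3), with Benjamini-Hochberg adjustment over all of them and a threshold of 0.05. DESeq2 1.42.0, limma-voom (limma 3.58.1), other scalings, filters, marker covariates and leaving out each mouse were alternatives, and the scripts were tested on simulated data. CPM scales counts to the library total, and within-mouse log2 differences used a prior count of 2. A floor of 3 counts covers counting error only. The labels give the mouse of each eye, and the deviations of eyes of a mouse from their group means were positively correlated across genes (r 0.19 to 0.71, median 0.25, against -0.42 to 0.28, median -0.08, between eyes of different mice, so the ranges overlap). Without the replicate block 755 genes were called. Sequencing took 2 runs, which the titles do not separate, so runs were not compared.

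The 7 genes, the further gene lists and the naming rule were chosen with earlier results of these data known. The rule named all 7 genes, the called genes of each list other than the cell markers (the 4 with the largest change where more were called) with its most abundant gene, and the genes most and least like *Mt1* and *Mt2*. Lists chosen from knowledge covered zinc, copper and iron genes, glucocorticoid and STAT3 responses, Nrf2 targets and markers of retinal and other cells. Amino acid sequences and a promoter of *Slc39a14* were not analysed here.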

Additional observations from a re-analysis of the deposited data

Results flagged for a closer look

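*Slc39a14* in the Nrf2 eye of mouse 1 stood at 2.9 log2 CPM, against 3.96 to 4.39 in the other 4 Nrf2 eyes. Its gap to the nearest eye was 0.711 of the range of the group, just above the critical value of 0.71 for 5 samples. Of the 14 groups of 5 eyes examined for the 7 genes this was the 1 case, where chance alone gives about 1 in 20 groups, or 0.7 of the 14. The control eye of the same mouse was also the lowest of its group, at 7.345 CPM.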

How the results depend on the processing

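*Mt2* was called lower in 13 of 14 alternatives, *Mt1* in 10 and *Mt3* higher in 8. Directions of these 3 genes held in all 14. With macrophage and microglia markers as a covariate 0 genes of 16362, 0 of the 7 and 0 of the 35 other zinc and metal genes were called (edgeR, 1069, 1 and 4 at an unadjusted p under 0.05), since that covariate nearly equals the group. *Mt1*, *Mt2* and *Mt3* then stood at -1.55, -1.18 and 1.36 (adjusted p from 0.746 to 0.781), and *Mtf1*, *Slc30a1* and *Slc39a14* reversed to -0.73, -0.44 and -1.55 (adjusted p from 0.748 to 0.908). With rod markers as a covariate *Mt1* stood at -0.73 and called genes numbered 395 of 16362, 2 of the 35 and 1 of the 10 STAT3 and acute phase genes, in place of 4. DESeq2 called 1823. The cause of the shifts with rod markers and DESeq2 was not tested.

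Without the replicate block *Mt3* was 0.895 (adjusted p = 0.172), the 35 other genes gave 2 calls in place of 5, and *Slc30a5*, *Slc39a3* and *Slc39a12* lost theirs. The unpaired exact permutation p of the *Mt2* to *Mt1* ratio was 0.627. Leaving out each mouse gave 584 to 857 calls overall (584 without mouse 2, 613 without mouse 4, 683 without mouse 5), 1 to 3 among the 7 genes and 2 to 4 among the 35. *Mt1* ranged from -0.99 to -0.74, *Mt3* from 0.96 to 1.30 and the *Mt2* to *Mt1* ratio from -0.085 to -0.015. *Slc39a10* reversed to 0.10, 0.11 and 0.08 without mice 1, 2 and 3, within a range of -0.17 to 0.11, and *Slc39a14* to -0.079 without mouse 5, within a range of -0.079 to 0.32. Fewer samples enter these fits. With principal transcript lengths, chosen after seeing the data, *Mt3* over *Mt2* per length was 0.733 in control and 2.85 in Nrf2 eyes, beside 0.424 and 1.65.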
